A study of Gossypium hirsutum with 18 samples.

Results

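The genes described here carry a protein name of the cell division machinery: cyclins, cyclin-dependent kinases and their inhibitors, DNA polymerases, replication factors, histones and HMG-Y proteins. They were picked by search terms in the name of the closest described protein, which the deposited tables give for each gene. The terms were chosen with earlier results of these data known. Across 3 days, 51 different genes matched, of 11153 genes listed on any day. There were 6 at -1 day post-anthesis (DPA), 6 at 0 DPA and 48 at 1 DPA, and 6 of the genes were listed on more than 1 day. The tables list only genes that the authors had called different between the genotypes. A gene of this machinery that is absent from a table was therefore not called on that day, and its level there was not analysed. Names of this kind mark the nearest described protein and not a tested function. By the first protein name given, no gene for proliferating cell nuclear antigen, the sliding clamp of DNA replication, was listed on any day.

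A dividing cell copies its DNA once per cycle. Helicases of the MCM family open the double helix, replication factor C loads the sliding clamp, and DNA polymerases delta and epsilon copy the lagging and the leading strand. New histones, around which DNA is wrapped, are made at the same time. Cyclins switch on cyclin-dependent kinases at set points of the cycle: D-type cyclins at its start, A-type cyclins from DNA synthesis to mitosis, and B-type cyclins at entry into mitosis. Inhibitors of the KRP and SIAMESE-related families hold these kinases back. Cotton fibers are single epidermal cells of the ovule that leave the cycle and elongate, while other cells of the young ovule still divide.

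Ovules of upland cotton (Gossypium hirsutum) were sequenced as total RNA on an Illumina platform in 18 libraries, with 3 replicates in each of 6 groups. Xu142fl, as background a fuzzless and lintless mutant, was set against Xu142, the fiber-bearing line it derives from, at -1, 0 and 1 DPA. Both genotypes were labelled as untreated, whole ovules were used, and the labels give neither age, growth conditions nor separate plants. A p-value here thus speaks only of the scatter among these libraries, and that scatter may be technical. In RNA from whole ovules, fewer cells of a type and less RNA per cell cannot be told apart.

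The authors listed 872 genes at -1 DPA, 1366 at 0 DPA and 10793 at 1 DPA. Values are deposited normalised reads per library. Reads recovered from them for the listed genes came to between 210953 and 257804 per library at -1 DPA, between 130502 and 346187 at 0 DPA and between 2833696 and 6388114 at 1 DPA. Each day was normalised on its own, so levels are compared within a day only. Marker lists moved with genotype too. At -1 DPA all 7 listed photosynthesis genes were lower in Xu142fl, and of 6 epidermis and fiber genes 2 were higher and 4 lower. At 0 DPA all 8 photosynthesis, all 5 pollen and all 8 epidermis and fiber genes were lower, the last with summed levels of 1454 to 2517 normalised reads in Xu142fl, against 9960.4 to 17577 in Xu142. At 1 DPA the lists were longer. Of 37 listed genes named for epidermis and fiber, 16 were higher and 21 lower in Xu142fl, and their summed level ran from 28822 to 35309.5 normalised reads in Xu142fl libraries, against 189095 to 301995 in Xu142 libraries. Of 153 listed housekeeping genes, 30 were higher and 123 lower in Xu142fl. Photosynthesis markers were split 12 higher to 21 lower, and pollen markers 5 to 7, with summed pollen levels of 688 to 898 in Xu142fl and 1359 to 1542 in Xu142. These lists hold called genes only, and their part in the results below was not tested. One count was made on the 0 DPA Xu142 libraries. It took transcripts listed on all 3 days with at least 40 normalised reads in Xu142fl and higher in Xu142fl at 0 DPA. Of 98 such transcripts at 5% or less of the Xu142fl level in Xu142 at both -1 and 1 DPA, 45 reached 10% or more at 0 DPA, and 0 of the cell division genes were among these transcripts. The 5% limit was not set at 0 DPA, so only that day could exceed it, and the count cannot show that these libraries stand apart.

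Before and at flower opening few genes of the machinery were listed, and most of those were higher in Xu142fl. The deposited fold changes are shrunken toward 0, at a median of 0.679 of the log2 ratio of group means at -1 DPA. This share was 0.655 at 0 DPA and 0.967 at 1 DPA. A limit of 1 on the deposited fold change was thus stricter before 1 DPA, and the counts of the 3 days are not like for like. At -1 DPA the authors listed 1.5% of the 58161 genes they tested, 0.824% as higher and 0.676% as lower in Xu142fl, so that 54.9% of the listed genes were higher. Of the 6 cell division genes 5 were higher and 1 lower. At 0 DPA they listed 2.38% of 57326 genes, 0.876% as higher and 1.51% as lower in Xu142fl, so that 36.7% of the listed genes were higher. Of the 6 cell division genes 4 were higher and 2 lower. The median log2 ratio, Xu142fl over Xu142, was 1.73 for the 6 genes and 1.28 for all listed genes at -1 DPA. At 0 DPA it was 2.45 for the cell division genes with reads in both genotypes and -1.72 for all listed genes. Medians leave out genes without a finite ratio, here the lower gene Gh_A02G181300 with 0 reads in Xu142fl, so 2.45 overstates the middle of the 6. With so few genes these counts describe single genes rather than a class.

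Histone H2B.3, gene Gh_A13G255900, was higher in Xu142fl on each of the 3 days. H2B is a core histone, and the gene lies on chromosome A13 from 108016734 to 108017455 on the minus strand, in coordinates of the authors' own build, which is not given in the sources used here. At -1 DPA it had 1694, 1673 and 1432 normalised reads in Xu142fl, against 589.9, 609 and 601 in Xu142. At 0 DPA it had 3093, 2908 and 2222 in Xu142fl, against 1088, 1172 and 951 in Xu142. At 1 DPA it had 3235, 2350.2 and 2068 in Xu142fl, against 752, 456 and 600.1 in Xu142. The lowest Xu142fl library stood above the highest Xu142 library on every day. Groups did not overlap in 100%, 99.4% and 97.6% of all listed genes at -1, 0 and 1 DPA. The log2 ratios of the group means were 1.42 ± 0.08, 1.36 ± 0.16 and 2.08 ± 0.29 (SE, 3 libraries a group), with adjusted p of 5.71e-61, 6.24e-12 and 2.32e-21 in the authors' deposited tables. At 0 DPA the call was lost in an edgeR quasi-likelihood refit with Benjamini-Hochberg adjustment when Xu142fl replicate 1 or 2 or Xu142 replicate 1 or 2 was left out, with adjusted p between 0.0903 and 0.135. At -1 DPA, with DESeq2 factors from the listed genes, its edgeR log2 ratio was 0.30 and not called (adjusted p = 1).

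A gene for HMG-Y-related protein A, Gh_A07G085000, was also higher in Xu142fl on all 3 days. Proteins of this group carry AT-hooks and bind AT-rich DNA in chromatin. It lies on chromosome A07 from 11721859 to 11722875 on the minus strand. It had 702, 638 and 528 normalised reads in Xu142fl at -1 DPA, against 146, 139 and 167 in Xu142. At 0 DPA there were 703, 654 and 575 in Xu142fl, against 119, 111 and 125 in Xu142. At 1 DPA there were 650.3, 611 and 549.7 in Xu142fl, against 76.5, 62.8 and 65.5 in Xu142. The Xu142 mean was 24.2%, 18.3% and 11.3% of the Xu142fl mean on the 3 days. Its log2 ratios were 2.05 ± 0.14, 2.45 ± 0.10 and 3.14 ± 0.11 (SE), with adjusted p of 2e-52, 2.66e-37 and 2.09e-59 in the authors' deposited tables. The ratio was larger at 1 DPA than at -1 DPA by 1.09 on the log2 scale, with an adjusted p of 0.00146 in edgeR's interaction test over the 700 genes listed on both days. From 0 to 1 DPA the difference was 0.69 with an adjusted p of 0.0520, and from -1 to 0 DPA it was 0.40 with an adjusted p of 0.408.

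The third gene higher on all 3 days was that of replication factor C subunit 3, Gh_A13G183200, a part of the clamp loader. It lies on chromosome A13 from 99108053 to 99111434 on the plus strand. At -1 DPA it had 156, 158 and 140.5 normalised reads in Xu142fl, against 14.0, 22.2 and 16.3 in Xu142. At 0 DPA there were 211, 199.9 and 198 in Xu142fl, against 10.1, 14.5 and 49.5 in Xu142. At 1 DPA there were 155, 154 and 160.0 in Xu142fl, against 8.27, 13.6 and 16.4 in Xu142. The Xu142fl libraries were close together on each day, and the Xu142 level stayed at 11.6%, 12.2% and 8.18% of theirs. The log2 ratios were 3.11 ± 0.21, 3.04 ± 0.73 and 3.61 ± 0.27 (SE), with adjusted p of 1.44e-32, 1.29e-11 and 3.48e-26 in the authors' deposited tables. One library carried much of the spread at 0 DPA: without Xu142 replicate 3 the edgeR log2 ratio was 4.02, against 3.04 with all libraries, and without Xu142 replicate 2 it was 2.76 with the call lost (adjusted p = 0.0577). No difference between days passed the interaction test for this gene or for Histone H2B.3, and the smallest adjusted p was 0.0773, for Histone H2B.3 between -1 and 1 DPA. That test used the authors' factors only. With TMM factors from the listed genes the edgeR log2 ratio of Histone H2B.3 was 1.23 at -1 DPA and 3.25 at 1 DPA, a difference that was not tested.

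**Figure D1:**
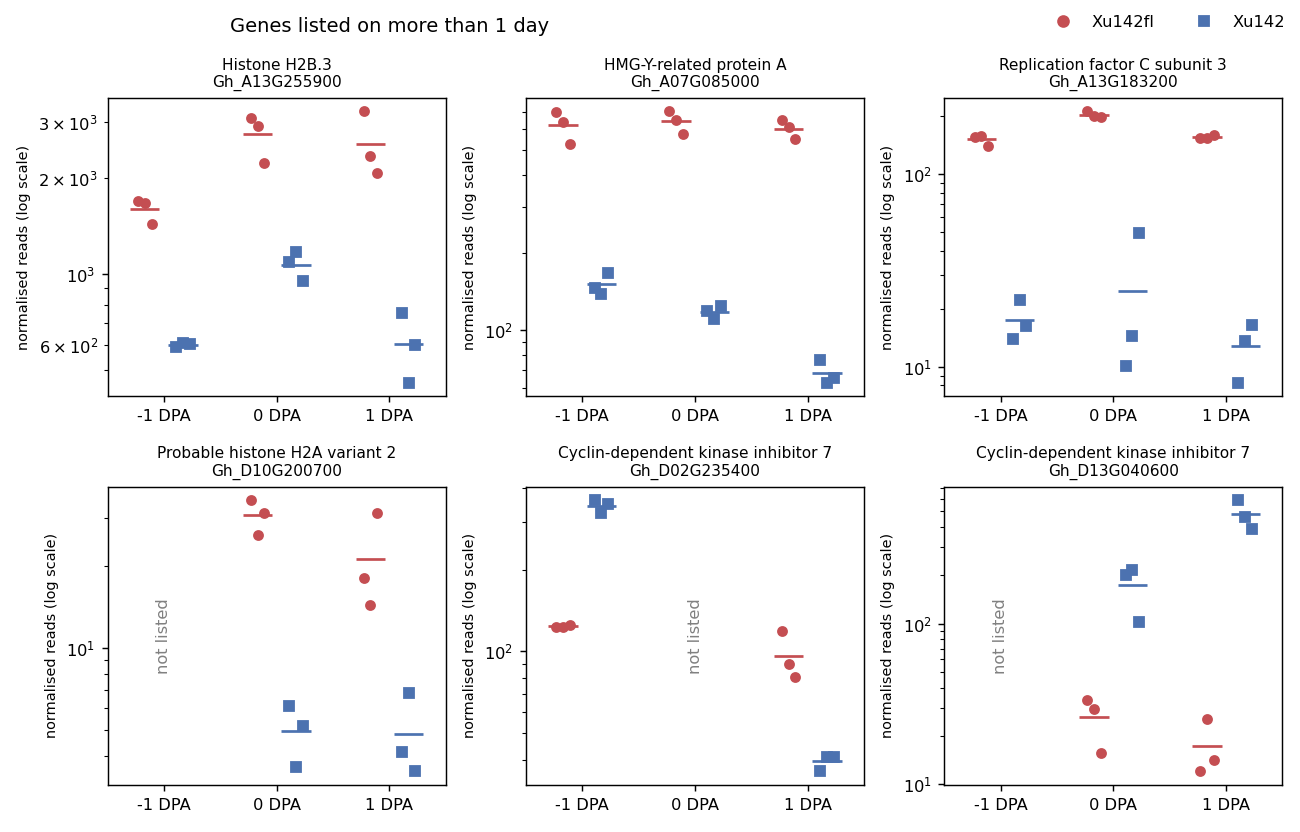
Normalised reads per library (vertical axis, log scale) of the 6 genes listed on more than 1 day, by day, with Xu142fl as circles left of Xu142 as squares and horizontal lines at group means (3 libraries each). The Xu142fl circles stand above the Xu142 squares in the upper panels on all 3 days, while Gh_D02G235400 changes sides between -1 and 1 DPA.

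Probable histone H2A variant 2, Gh_D10G200700, was higher in Xu142fl at 0 and 1 DPA. H2A is the partner of H2B in the nucleosome. At 0 DPA it had 34.8, 25.9 and 31.3 normalised reads in Xu142fl, against 6.08, 3.63 and 5.15 in Xu142. At 1 DPA it had 18.1, 14.3 and 31.2 in Xu142fl, against 4.14, 6.82 and 3.51 in Xu142. The groups did not overlap, as in 99.4% and 97.6% of all listed genes at 0 and 1 DPA. The Xu142 values rest on 15 recovered reads in all at 0 DPA and 12 at 1 DPA. The log2 ratios were 2.63 ± 0.24 and 2.14 ± 0.46 (SE), with adjusted p of 8.17e-05 and 0.00354 in the authors' deposited tables. In the edgeR refit the call was lost at 0 DPA without Xu142 replicate 2 (adjusted p = 0.0779), and at 1 DPA without Xu142fl replicate 3 (0.0834) or Xu142 replicate 3 (0.0650).

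Both remaining genes listed on more than 1 day are named cyclin-dependent kinase inhibitor 7, a KRP-type inhibitor, and they did not follow a common course. Gh_D02G235400 had 123, 123 and 125 normalised reads in Xu142fl at -1 DPA, against 360.3, 324 and 348 in Xu142, and was lower in every Xu142fl library. At 1 DPA it had 118, 90.2 and 80.6 in Xu142fl, against 36.2, 40.9 and 40.9 in Xu142, and was higher in every Xu142fl library. The log2 ratios were -1.47 ± 0.05 and 1.29 ± 0.18 (SE), with adjusted p of 1.08e-24 and 5.74e-05 in the authors' deposited tables. The difference between these days was 2.76 on the log2 scale, with an adjusted p of 9.81e-08 in the edgeR interaction test. Of all 700 genes listed on both days, 28 had opposite directions. Groups did not overlap in 100% of all genes listed at -1 DPA and in 97.6% at 1 DPA. Gh_D13G040600 was lower in Xu142fl on both days it was listed. It had 33.7, 29.6 and 15.7 normalised reads in Xu142fl at 0 DPA, against 201, 217 and 102 in Xu142. At 1 DPA it had 12.04, 25.6 and 14.2 in Xu142fl, against 586, 461 and 386 in Xu142, 27.6-fold lower in Xu142fl. The log2 ratios were -2.72 ± 0.42 and -4.79 ± 0.39 (SE), with adjusted p of 6.45e-12 and 1.59e-63 in the authors' deposited tables. The gap widened by 1 DPA, with a difference of -2.08 and an adjusted p of 0.00392 in the edgeR interaction test over 1145 genes.

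Cyclins listed only before or at flower opening were 3 in number. Putative cyclin-D6-1, Gh_A06G146200, had 141, 137 and 123 normalised reads in Xu142fl at -1 DPA, against 42.0, 50.1 and 68.2 in Xu142 (log2 ratio 1.32 ± 0.22, SE; adjusted p = 5.09e-08 in the authors' deposited table). In Arabidopsis, CYCD6;1 acts in formative divisions of the root. Cyclin-U2-2, Gh_A08G158800, had 42.3, 46.7 and 28.5 in Xu142fl, against 3.73, 6.75 and 5.76 in Xu142 (log2 ratio 2.85 ± 0.31, SE; adjusted p = 1.47e-07 in the authors' deposited table). U-type cyclins, also called P-type, are related to a yeast cyclin of phosphate signalling and bind a cyclin-dependent kinase in Arabidopsis. Both genes were higher in each Xu142fl library than in any Xu142 library, and groups did not overlap in 100% of the genes listed at -1 DPA. With DESeq2 factors from the listed genes the edgeR ratio of Gh_A06G146200 was 0.21 and not called (adjusted p = 1). Cyclin-D1-1, Gh_A02G181300, was the reverse at 0 DPA: it had 0 reads in all 3 Xu142fl libraries, against 19.3, 19.1 and 10.3 normalised reads in Xu142. Taking 3 reads over the group as the limit that a count of 0 allows, it was at least 16.1-fold lower in Xu142fl, with an adjusted p of 0.00016 in the authors' deposited table. This limit covers counting error only. Without Xu142 replicate 2 its edgeR adjusted p was 0.0519.

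At 0 DPA the count of called genes rested on the libraries and the scaling. All 6 were called by the edgeR refit with all libraries, and 2 without Xu142 replicate 2, namely the HMG-Y gene and Gh_D13G040600. Of all 1366 listed genes the same fits called 1144 and 688. With size factors taken from the listed genes, DESeq2's gave 4 genes higher and 0 lower in Xu142fl, and edgeR's TMM factors 4 higher and 1 lower, against 4 and 2 by the authors' calls. Over all listed genes DESeq2's gave 499 higher and 172 lower and TMM factors 501 and 303, against 502 and 864 by the authors' calls. Gh_D13G040600 was not called with either set of factors (adjusted p = 0.587 and 0.0908), nor Gh_A02G181300 with DESeq2's (0.0743).

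At 1 DPA genes of the machinery differed in both directions. By the authors' calls every listed DNA polymerase and replication factor and 7 of 10 histone genes were higher in Xu142fl, while 10 of 11 U-, P- and J-type cyclins were lower. The D-type cyclins, 3 higher and 6 lower, lay close to the share over all listed genes given next. The authors listed 17.6% of 61474 genes, 5.7% as higher and 11.9% as lower in Xu142fl, so that 32.5% of the listed genes were higher. Of the 48 cell division genes, 25 were higher and 23 lower, with a median log2 ratio of 1.06, against -1.29 for all listed genes. As listed genes have a log2 fold change of at least 1 in size, the median of so even a split falls at the smallest positive ratios. It does not measure a shift of the class. The median size of the log2 ratio, whatever its sign, was 1.45 for the 48 genes and 1.60 for all listed genes, and 15 of the 48 passed a size of 2, as did 38.7% of all listed genes. In all 48 the groups did not overlap, as in 97.6% of all listed genes. By subgenome, 15 of the 48 genes were higher and 12 lower on A chromosomes, 10 and 10 on D chromosomes, and 1 lay on an unplaced contig. Over all listed genes, 1692 were higher and 3517 lower on A chromosomes, and 1666 and 3683 on D chromosomes. The lower calls depend on the scaling. With TMM or DESeq2 factors from the listed genes, which centre that list on itself, the median log2 ratio of all listed genes moved up by 1.20 and 1.24, and each gave 25 cell division genes higher and 5 lower. Over all listed genes TMM factors gave 3505 higher and 2411 lower and DESeq2 factors 3503 and 2317, against 3505 and 7288 by the authors' calls. By role, each set of factors left 4 U-type cyclins and 1 kinase inhibitor called lower, and 0 D-type cyclins and 0 histones. All 7 DNA polymerases and replication factors and 7 histones were called higher. These higher calls are no check, as nearly all of the 3505 higher listed genes were called higher with these factors. The edgeR refit with the authors' factors called 44 of the 48, 22 in each direction, and 10130 of all 10793 listed genes.

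**Figure D2:**
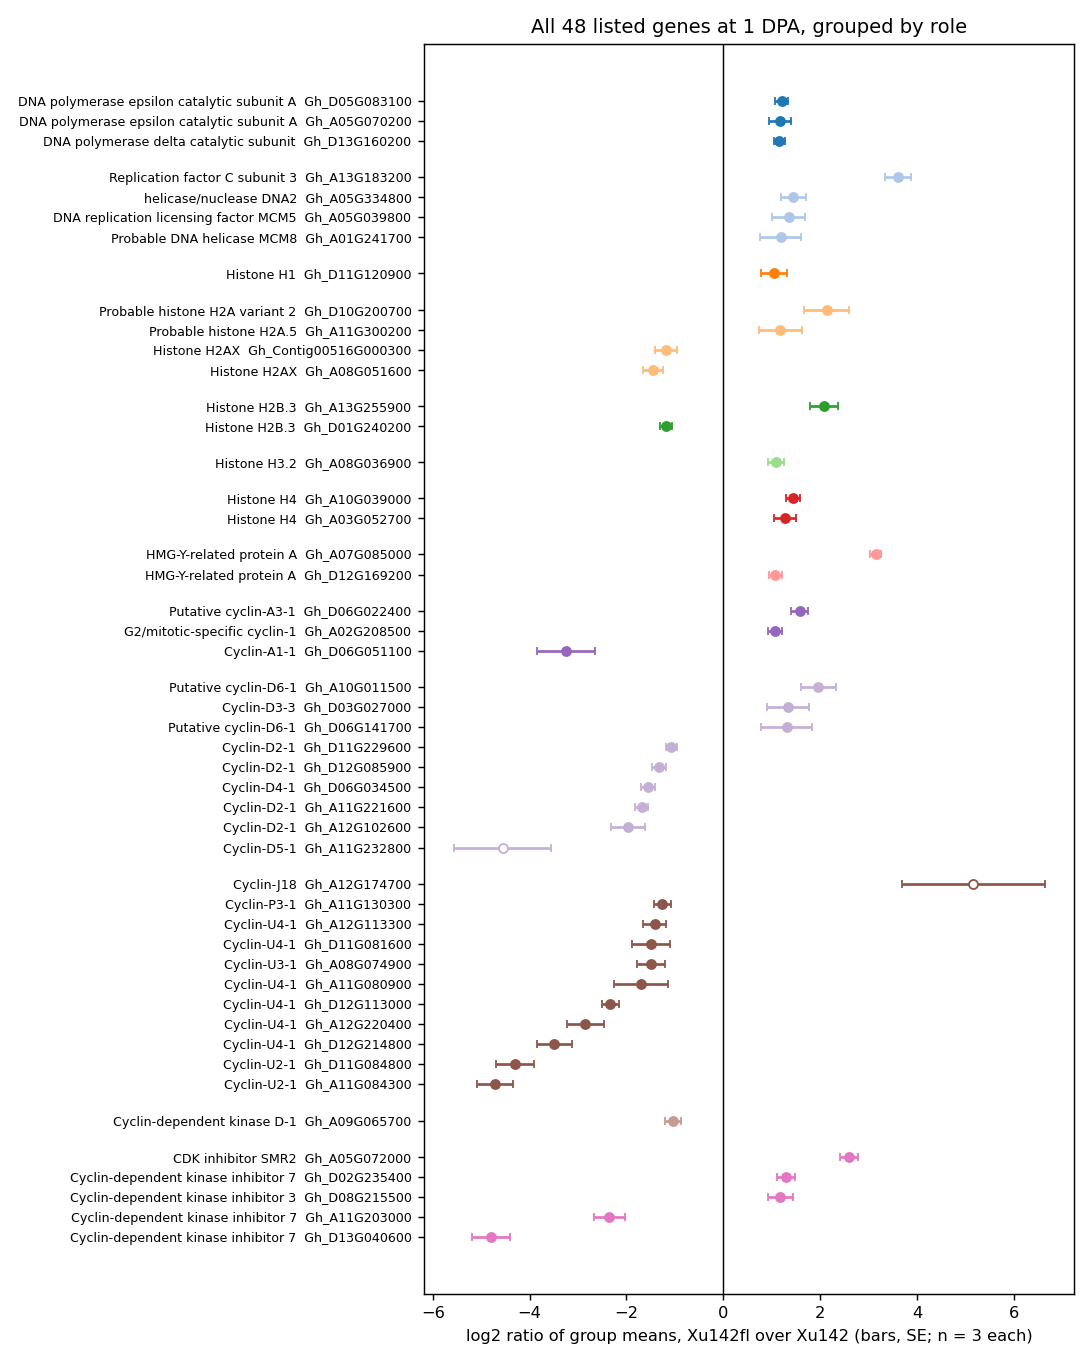
Log2 ratio of group means, Xu142fl over Xu142 (horizontal axis), of the 48 cell division genes listed at 1 DPA, grouped by role, with SE over 3 libraries a group. Replication genes lie right of 0 and the U-, P- and J-type cyclins lie left of it except Cyclin-J18, and open symbols mark ratios that rest on 2 recovered reads in one group. The ratios of Gh_D01G240200, Gh_Contig00516G000300, Gh_A09G065700, Gh_D11G229600 and Gh_A11G130300 turn slightly positive with other factors.

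All 3 DNA polymerase genes were higher in Xu142fl at 1 DPA, at log2 ratios between 1.16 and 1.21, where 32.5% of all listed genes were higher. The catalytic subunit of DNA polymerase delta, Gh_D13G160200, had 565, 659 and 611 normalised reads in Xu142fl, against 311, 255 and 256 in Xu142 (log2 ratio 1.16 ± 0.12, SE). The catalytic subunit A of DNA polymerase epsilon was listed as a pair of subgenome copies. Gh_A05G070200 had 405, 623 and 536 in Xu142fl, against 251, 188 and 254 in Xu142, and Gh_D05G083100 had 379, 529 and 479 in Xu142fl, against 198, 199 and 205 in Xu142. Their log2 ratios, 1.17 ± 0.22 and 1.21 ± 0.14 (SE), differed by less than their errors. In the authors' deposited table the adjusted p was 6.14e-12 for polymerase delta and 8.8e-08 and 2.38e-10 for the A and D copies of polymerase epsilon. Reads of such near-identical copies can be split between them in counting, so the value of a single copy is less certain than that of the pair.

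Of the 4 replication factors, all higher at 1 DPA, the clamp loader subunit had the widest ratio and the other 3 lay between 1.19 and 1.45. Among all listed genes 32.5% were higher. DNA2, Gh_A05G334800, a helicase and nuclease that trims Okazaki fragments, had 398, 755 and 634 normalised reads in Xu142fl, against 225, 205 and 225 in Xu142 (log2 ratio 1.45 ± 0.26, SE; adjusted p = 1.44e-09 in the authors' deposited table). MCM5, Gh_A05G039800, a subunit of the replicative helicase, had 128, 70.7 and 65.2 in Xu142fl, against 39.3, 32.7 and 31.6 in Xu142 (log2 ratio 1.35 ± 0.35, SE). Xu142fl replicate 1 was the high library of MCM5, and its gene model is 575 bases long. MCM8, Gh_A01G241700, a related helicase of recombination, had 51.2, 72.8 and 74.3 in Xu142fl, against 44.5, 19.1 and 23.4 in Xu142 (log2 ratio 1.19 ± 0.42, SE). In the authors' deposited table the adjusted p was 0.000548 for MCM5 and 0.006 for MCM8. The edgeR refit did not call MCM8 (adjusted p = 0.0521), and it lost MCM5 without Xu142 replicate 3 (0.0692).

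Among the 10 histone genes at 1 DPA, 7 were higher and 3 lower in Xu142fl, where all listed genes had 32.5% higher. The most abundant per length was Histone H4, Gh_A03G052700, at 13075 normalised reads per kb in Xu142fl and 5425 in Xu142. It had 5366, 4422 and 3745 normalised reads in Xu142fl, against 2176, 1443 and 1996 in Xu142 (log2 ratio 1.27 ± 0.23, SE). The second H4 gene, Gh_A10G039000, had 664, 595 and 569.5 in Xu142fl, against 266, 201 and 212 in Xu142 (log2 ratio 1.43 ± 0.14, SE). Histone H3.2, Gh_A08G036900, had 762, 615 and 554 in Xu142fl, against 316, 263 and 324 in Xu142 (log2 ratio 1.09 ± 0.17, SE). H3 and H4 together form the core of the nucleosome. The adjusted p of these 3 genes in the authors' deposited table was 1.18e-10, 7.83e-16 and 7.03e-09. Histone genes come in families of near-identical copies, so reads may be shared with copies that are not listed.

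Histone H1, the linker histone that sits between nucleosomes, was listed as 1 gene, Gh_D11G120900. It had 404, 319.8 and 355 normalised reads in Xu142fl, against 229.6, 127 and 164 in Xu142 (log2 ratio 1.05 ± 0.27, SE; adjusted p = 1.77e-05 in the authors' deposited table). Its edgeR call was lost without Xu142fl replicate 1 (adjusted p = 0.0551) or Xu142 replicate 3 (0.0502). Probable histone H2A.5, Gh_A11G300200, had 34.1, 42.0 and 51.6 in Xu142fl, against 10.3, 28.6 and 17.5 in Xu142 (log2 ratio 1.18 ± 0.44, SE). Its adjusted p was 0.017 in the authors' deposited table, and the edgeR refit did not call it (adjusted p = 0.0773).

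The 3 lower histone genes were both Histone H2AX genes and the second Histone H2B.3 gene. H2A.X is the variant that is phosphorylated around DNA breaks. Gh_A08G051600 had 129, 119.9 and 118 normalised reads in Xu142fl, against 245, 389 and 373 in Xu142 (log2 ratio -1.45 ± 0.20, SE; adjusted p = 1.91e-10 in the authors' deposited table). With TMM and DESeq2 factors its edgeR ratio was -0.24 and -0.20 and was not called. Gh_Contig00516G000300 had 239.8, 159 and 167 in Xu142fl, against 365, 489.8 and 434 in Xu142 (log2 ratio -1.19 ± 0.23, SE; adjusted p = 7.29e-08 in the authors' deposited table), and its edgeR ratio turned to 0.02 and 0.05 with TMM and DESeq2 factors. Each Xu142fl library lay below each Xu142 library in both genes, and groups did not overlap in 97.6% of all genes listed at 1 DPA. Histone H2B.3 on chromosome D01, Gh_D01G240200, had 945, 876 and 813 in Xu142fl, against 1681, 2168 and 2116 in Xu142 (log2 ratio -1.18 ± 0.13, SE; adjusted p = 2.33e-14 in the authors' deposited table), and its edgeR ratio turned to 0.03 and 0.07 with those factors. The H2B.3 genes on A13 and D01 thus differed in opposite directions by the authors' calls. Per length, the A13 gene stood at 3534 normalised reads per kb in Xu142fl and 834 in Xu142, and the D01 gene at 1066 in Xu142fl and 2413 in Xu142.

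The second HMG-Y gene, Gh_D12G169200 on chromosome D12, was higher in Xu142fl at 1 DPA only among the 3 tables. It had 1755, 1803 and 1558 normalised reads in Xu142fl, against 938, 745 and 742 in Xu142. Its log2 ratio, 1.08 ± 0.13 (SE, with an adjusted p of 4.78e-12 in the authors' deposited table), was smaller than the 3.14 ± 0.11 of the A07 gene. At 1719 normalised reads per kb in Xu142fl and 815 in Xu142, it was the more abundant of the pair.

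**Figure D3:**
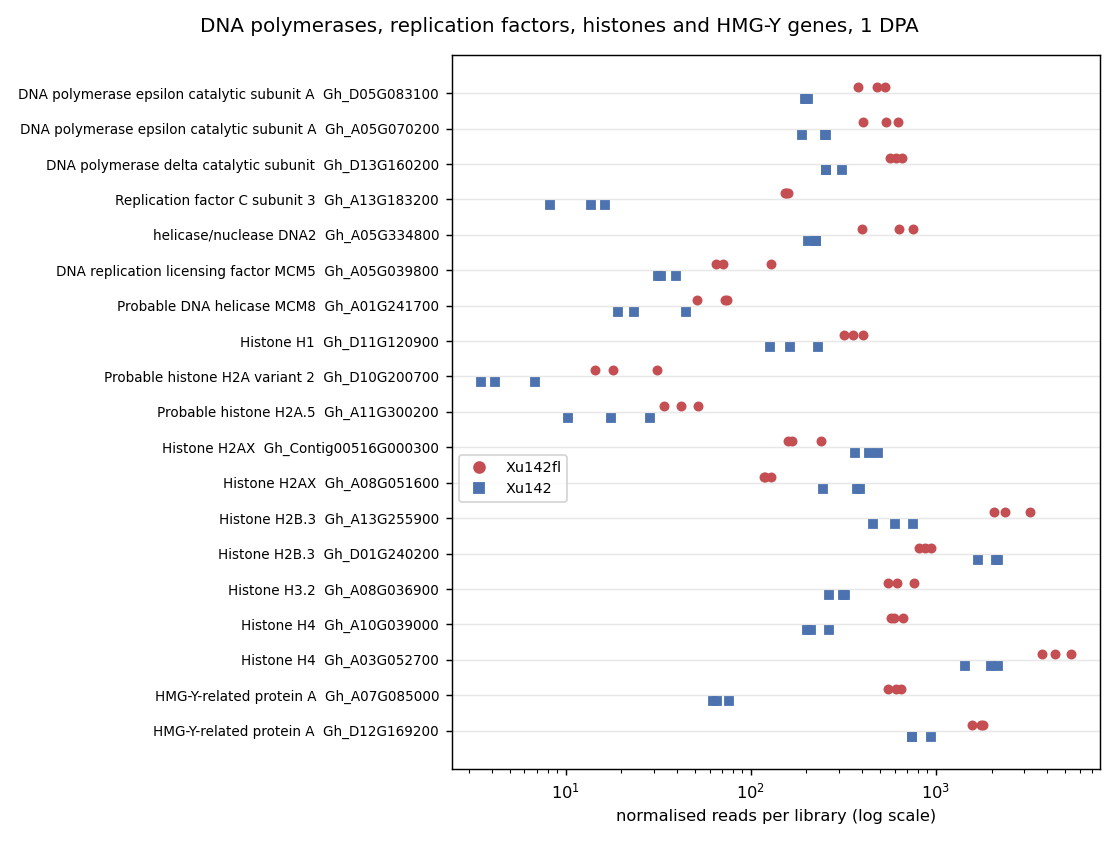
Normalised reads per library at 1 DPA (horizontal axis, log scale) of the DNA polymerase, replication factor, histone and HMG-Y genes, with Xu142fl as circles drawn above Xu142 as squares (3 libraries each). The circles lie right of the squares except in both Histone H2AX genes and Histone H2B.3 Gh_D01G240200. With TMM or DESeq2 factors 2 of these 3 ratios, those of Gh_Contig00516G000300 and Gh_D01G240200, turn slightly positive. That of Gh_A08G051600 shrinks to -0.24 and -0.20, and none of the 3 is called lower with those factors.

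Among the cyclins of DNA synthesis and mitosis, 2 were higher and 1 lower in Xu142fl at 1 DPA, where 32.5% of all listed genes were higher. Putative cyclin-A3-1, Gh_D06G022400, had 635, 677 and 754 normalised reads in Xu142fl, against 282, 194 and 216 in Xu142 (log2 ratio 1.58 ± 0.18, SE; adjusted p = 3.36e-17 in the authors' deposited table). G2/mitotic-specific cyclin-1, Gh_A02G208500, a B-type cyclin by its name, had 383, 397 and 479 in Xu142fl, against 226, 173 and 202 in Xu142 (log2 ratio 1.06 ± 0.15, SE; adjusted p = 4.2e-08 in the authors' deposited table). Cyclin-A1-1, Gh_D06G051100, was scarce in Xu142fl, at 3.01, 2.05 and 1.13, against 8.27, 20.46 and 30.4 in Xu142. Its log2 ratio of -3.26 ± 0.60 (SE) rests on 7 recovered reads in Xu142fl and 49 in Xu142, with an adjusted p of 0.000166 in the authors' deposited table.

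Of 9 D-type cyclins at 1 DPA, 3 were higher and 6 lower in Xu142fl, near the 32.5% higher among all listed genes. With TMM or DESeq2 factors the 3 were called higher, as were nearly all higher listed genes, and 0 of the 6 were called lower. D-type cyclins act with their kinases on the retinoblastoma-related protein at the start of the cycle. The higher ones were both Putative cyclin-D6-1 genes and Cyclin-D3-3, whose family drives proliferation in Arabidopsis organs. Cyclin-D3-3, Gh_D03G027000, had 311, 221 and 243 normalised reads in Xu142fl, against 160.3, 64.1 and 83.1 in Xu142 (log2 ratio 1.34 ± 0.44, SE; adjusted p = 4.7e-05 in the authors' deposited table). Putative cyclin-D6-1 Gh_A10G011500 had 54.2, 59.4 and 81.1 in Xu142fl, against 20.7, 9.55 and 19.9 in Xu142 (log2 ratio 1.96 ± 0.36, SE; adjusted p = 4.92e-06 in the authors' deposited table). The other, Gh_D06G141700, had 58.2, 39.97 and 56.7 in Xu142fl, against 34.1, 9.55 and 18.7 in Xu142 (log2 ratio 1.31 ± 0.52, SE), with an adjusted p of 0.0097 in the authors' deposited table and of 0.0775 in the edgeR refit. The edgeR call of Cyclin-D3-3 was lost without Xu142fl replicate 1 (adjusted p = 0.106), Xu142fl replicate 3 (0.0544) or Xu142 replicate 3 (0.0825).

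The lower D-type cyclins were 4 genes named Cyclin-D2-1, 1 Cyclin-D4-1 and 1 Cyclin-D5-1. Cyclin-D2-1 Gh_A12G102600 had 30.1, 32.8 and 40.3 normalised reads in Xu142fl, against 77.6, 177 and 149 in Xu142, and its D12 copy Gh_D12G085900 had 84.3, 66.6 and 71.5 in Xu142fl, against 177, 213 and 167 in Xu142. Their log2 ratios were -1.97 ± 0.34 and -1.32 ± 0.15 (SE). On chromosome 11, Gh_A11G221600 had 21.1, 21.5 and 23.8 in Xu142fl, against 64.1, 66.8 and 83.1 in Xu142, and Gh_D11G229600 had 17.1, 18.4 and 14.7 in Xu142fl, against 33.1, 34.1 and 38.6 in Xu142. Their log2 ratios were -1.69 ± 0.13 and -1.07 ± 0.12 (SE), and the second turned to 0.11 and 0.15 with TMM and DESeq2 factors. In the authors' deposited table the adjusted p of the 4 genes was 3.98e-08, 1.76e-08, 1.66e-06 and 0.0207. Gh_D11G229600 lost its edgeR call, with adjusted p of 0.0702 to 0.160, without any 1 library except Xu142 replicate 1.

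Cyclin-D4-1, Gh_D06G034500, had 10.04, 10.2 and 13.6 normalised reads in Xu142fl, against 34.1, 32.7 and 32.8 in Xu142 (log2 ratio -1.56 ± 0.15, SE; adjusted p = 0.00216 in the authors' deposited table). Cyclin-D5-1, Gh_A11G232800, had 0, 1.02 and 0.567 in Xu142fl, against 2.07, 19.1 and 16.4 in Xu142. With 2 recovered reads in Xu142fl, the ratio of Xu142 over Xu142fl was 23.6, with a 95% counting interval of 5.98 to 204. Its adjusted p was 0.000744 in the authors' deposited table, and the edgeR call was lost without any 1 library except Xu142 replicate 1, at adjusted p of 0.0510 to 0.0871.

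Of the U- and P-type cyclins 10 were listed at 1 DPA, all lower in Xu142fl by the authors' calls, where 32.5% of all listed genes were higher, and with DESeq2 factors Cyclin-P3-1 Gh_A11G130300 turned to 0.0023. With TMM or DESeq2 factors 4 of the 10 were still called lower, the Cyclin-U2-1 pair and the Cyclin-U4-1 genes Gh_A12G220400 and Gh_D12G214800. The edgeR ratios of the other 6 then lay between -1.13 and 0.0023, with Gh_D12G113000 the widest (adjusted p = 0.0588 with TMM and 0.0751 with DESeq2 factors). The widest gaps were those of the Cyclin-U2-1 pair on chromosome 11. Gh_A11G084300 had 15.1, 8.20 and 10.2 normalised reads in Xu142fl, against 188, 349 and 339 in Xu142, 26.2-fold lower in Xu142fl. Gh_D11G084800 had 20.1, 13.3 and 9.64 in Xu142fl, against 193, 351 and 309 in Xu142, 19.8-fold lower in Xu142fl. Both copies had Xu142 replicate 1 as the lowest Xu142 library, still far above all Xu142fl libraries. Their log2 ratios were -4.71 ± 0.37 and -4.31 ± 0.39 (SE), with adjusted p of 1.17e-41 and 2.83e-38 in the authors' deposited table.

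Cyclin-U4-1 was the name of 6 lower genes, which fell into 3 pairs of A and D copies by chromosome. The pair near the end of chromosome 12 had the widest gaps: Gh_A12G220400 had 41.1, 19.5 and 27.2 normalised reads in Xu142fl, against 149, 243 and 241 in Xu142, and Gh_D12G214800 had 17.1, 21.5 and 9.64 in Xu142fl, against 136, 202 and 202 in Xu142. Their log2 ratios were -2.85 ± 0.38 and -3.49 ± 0.36 (SE), with adjusted p of 1.25e-19 and 9.72e-26 in the authors' deposited table. The other chromosome 12 pair, Gh_A12G113300 and Gh_D12G113000, had log2 ratios of -1.42 ± 0.24 and -2.34 ± 0.18 (SE), with adjusted p of 9.3e-05 and 3.64e-07 in the authors' deposited table. Gh_A12G113300 had 32.1, 26.6 and 21.0 in Xu142fl, against 56.9, 70.9 and 85.4 in Xu142, and Gh_D12G113000 had 9.03, 10.2 and 9.08 in Xu142fl, against 38.3, 47.7 and 57.3 in Xu142. None of these 4 genes had overlapping groups, as in 97.6% of all genes listed at 1 DPA.

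The chromosome 11 pair of Cyclin-U4-1 was scarcer. Gh_A11G080900 had 3.01, 6.15 and 6.24 normalised reads in Xu142fl, against 13.4, 27.3 and 9.36 in Xu142, and Gh_D11G081600 had 7.02, 11.3 and 11.9 in Xu142fl, against 22.7, 40.9 and 21.1 in Xu142. Their log2 ratios were -1.70 ± 0.56 and -1.49 ± 0.39 (SE), with adjusted p of 0.0398 and 0.0136 in the authors' deposited table. The edgeR refit did not call the A copy (adjusted p = 0.0843) and lost the D copy without any 1 library except Xu142 replicate 1, at adjusted p of 0.0536 to 0.193. Cyclin-U3-1, Gh_A08G074900, had 78.3, 61.5 and 79.4 in Xu142fl, against 139, 267 and 211 in Xu142 (log2 ratio -1.49 ± 0.29, SE). Cyclin-P3-1, Gh_A11G130300, had 56.2, 71.7 and 67.5 in Xu142fl, against 125, 176 and 166 in Xu142 (log2 ratio -1.26 ± 0.18, SE, and 0.0023 with DESeq2 factors). In the authors' deposited table their adjusted p was 2.56e-07 and 1.53e-06.

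Cyclin-J18, Gh_A12G174700, stood against the other listed cyclins outside the A, B and D types. It had 20.1, 35.9 and 18.2 normalised reads in Xu142fl, against 2.07, 0 and 0 in Xu142. With 2 recovered reads in Xu142, all in replicate 1, the ratio of Xu142fl over Xu142 was 35.8, with a 95% counting interval of 9.62 to 301. Its adjusted p was 7.98e-07 in the authors' deposited table, and the edgeR log2 ratio was 4.78 with all libraries and 7.70 without Xu142 replicate 1.

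**Figure D4:**
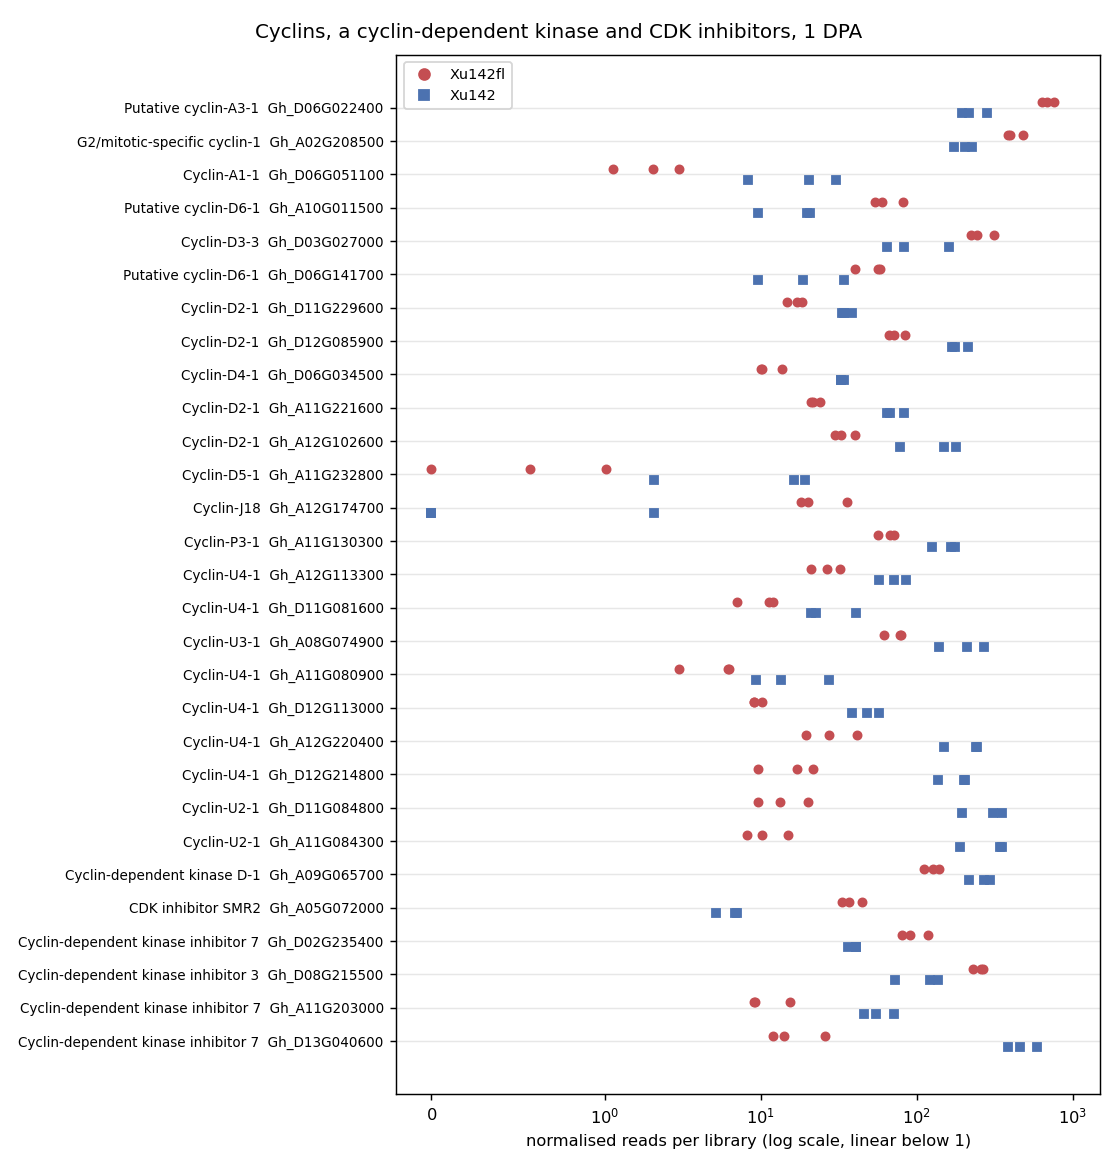
Normalised reads per library at 1 DPA (horizontal axis, log scale, linear below 1) of the cyclins, a cyclin-dependent kinase and the kinase inhibitors, with Xu142fl as circles drawn above Xu142 as squares (3 libraries each). The circles lie left of the squares in 17 of the 23 cyclins and in the kinase, where 32.5% of all listed genes were higher in Xu142fl. With other factors Gh_D11G229600, Gh_A11G130300 and the kinase Gh_A09G065700 have ratios slightly above 0.

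The kinases and their inhibitors did not move together at 1 DPA. Cyclin-dependent kinase D-1, Gh_A09G065700, whose family activates other cyclin-dependent kinases, had 111, 139 and 127 normalised reads in Xu142fl, against 215, 296 and 268 in Xu142. Its log2 ratio was -1.04 ± 0.16 (SE) and turned to 0.17 and 0.21 with TMM and DESeq2 factors; its adjusted p was 2e-06 in the authors' deposited table. Of 5 inhibitors, 3 were higher and 2 lower in Xu142fl, where 32.5% of all listed genes were higher. With so few genes this count describes single genes. Inhibitor SMR2, Gh_A05G072000, belongs to the SIAMESE-related family, whose founder in Arabidopsis promotes endoreduplication in trichomes. It had 33.1, 36.9 and 44.8 in Xu142fl, against 5.17, 6.82 and 7.02 in Xu142, 6.04-fold higher (log2 ratio 2.59 ± 0.19, SE; adjusted p = 2.51e-06 in the authors' deposited table).

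Among the KRP-type inhibitors, Cyclin-dependent kinase inhibitor 3, Gh_D08G215500, had 264, 229.6 and 256 normalised reads in Xu142fl, against 136, 72.3 and 122 in Xu142 (log2 ratio 1.18 ± 0.26, SE; adjusted p = 4.28e-06 in the authors' deposited table). The 3 genes named inhibitor 7 were split. Besides the higher Gh_D02G235400 and the lower Gh_D13G040600 given above, Gh_A11G203000 had 9.03, 9.22 and 15.3 in Xu142fl, against 54.8, 70.9 and 45.6 in Xu142 (log2 ratio -2.35 ± 0.33, SE; adjusted p = 1.99e-07 in the authors' deposited table). Per length, Gh_D13G040600 stood at 18.7 normalised reads per kb in Xu142fl and 516 in Xu142, where it was the most abundant of the 5 listed inhibitors.

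By the authors' calls the copies of an A and D pair differed in the same direction wherever both were listed, but with TMM and DESeq2 factors the chromosome 11 pair of Cyclin-D2-1 had opposite signs, Gh_A11G221600 at -0.48 and -0.44 and Gh_D11G229600 at 0.11 and 0.15. There were 7 such pairs at 1 DPA: DNA polymerase epsilon, Cyclin-U2-1, 3 pairs of Cyclin-U4-1 and 2 of Cyclin-D2-1. The log2 ratios of a pair's copies lay between 0.03 and 0.92 apart, the widest in Gh_A12G113300 and Gh_D12G113000. Copies were matched by name and chromosome number, and shared reads can make their values more alike than the transcripts are.

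Other genes of DNA replication, mitosis and chromatin assembly were sought by a second set of search terms in the protein name. These terms too were chosen with earlier results of these data known. None was listed at -1 DPA and 1 at 0 DPA, against 24 at 1 DPA, 16 of them higher in Xu142fl and 8 lower. The authors listed 1.5%, 2.38% and 17.6% of all tested genes on these days, and 32.5% of the genes listed at 1 DPA were higher. No gene was listed on any day under the terms for origin recognition, GINS, DNA primase, replication protein A, flap endonuclease or ribonucleotide reductase. Nor was any under those for thymidylate synthase, thymidine kinase, E2F, retinoblastoma-related, Aurora, WEE1, MYB3R, spindle, kinetochore or centromere. Such genes were not called, and their levels were not analysed. All 8 genes of condensin, SMC and related complexes, which compact and hold chromosomes, were higher, at log2 ratios of 1.02 to 1.39. Both genes of anaphase-promoting complex subunit 1 were higher, as was CDC20.1, a cofactor of that complex, which drives exit from mitosis. Both TSO1-like genes were higher too. CDC45, a partner of the MCM helicase, was split: Gh_D11G149100 had 241, 273 and 242 normalised reads in Xu142fl, against 132, 64.1 and 76.0 in Xu142 (log2 ratio 1.47 ± 0.34, SE; adjusted p = 1.34e-07 in the authors' deposited table), while Gh_D07G221300 was lower at -1.15 ± 0.37 (SE) and turned to 0.04 and 0.07 with TMM and DESeq2 factors. The edgeR refit called 7 of the 8 condensin and SMC genes and did not call Gh_D07G221300.

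The lower genes of that list were led by DNA ligase 1, Gh_A08G228100, which joins Okazaki fragments. It had 9.03, 5.12 and 5.67 normalised reads in Xu142fl, against 112, 116 and 78.4 in Xu142 (log2 ratio -3.95 ± 0.32, SE; adjusted p = 1.87e-21 in the authors' deposited table). All 5 genes of nucleosome assembly protein 1, a chaperone of H2A and H2B, were lower at log2 ratios of -2.64 to -1.21 by the authors' calls, and 2 of them, Gh_A06G082300 and Gh_D03G061600, turned to 0.03 and 0.04 with DESeq2 factors. With TMM or DESeq2 factors 2 of the 5 were called lower. Type 2 DNA topoisomerase 6 subunit B-like, Gh_D06G210200, was lower at 0 DPA, at 3.37, 3.70 and 2.94 in Xu142fl against 34.5, 24.5 and 35.0 in Xu142, and again at 1 DPA, at 7.02, 4.10 and 6.81 in Xu142fl against 16.5, 19.1 and 29.2 in Xu142. With TMM and DESeq2 factors it was not called at 0 DPA (adjusted p = 0.0782 and 0.423) or at 1 DPA, where its edgeR log2 ratio was -0.62 and -0.58 with those factors and -1.81 with the authors'.

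**Figure D5:**
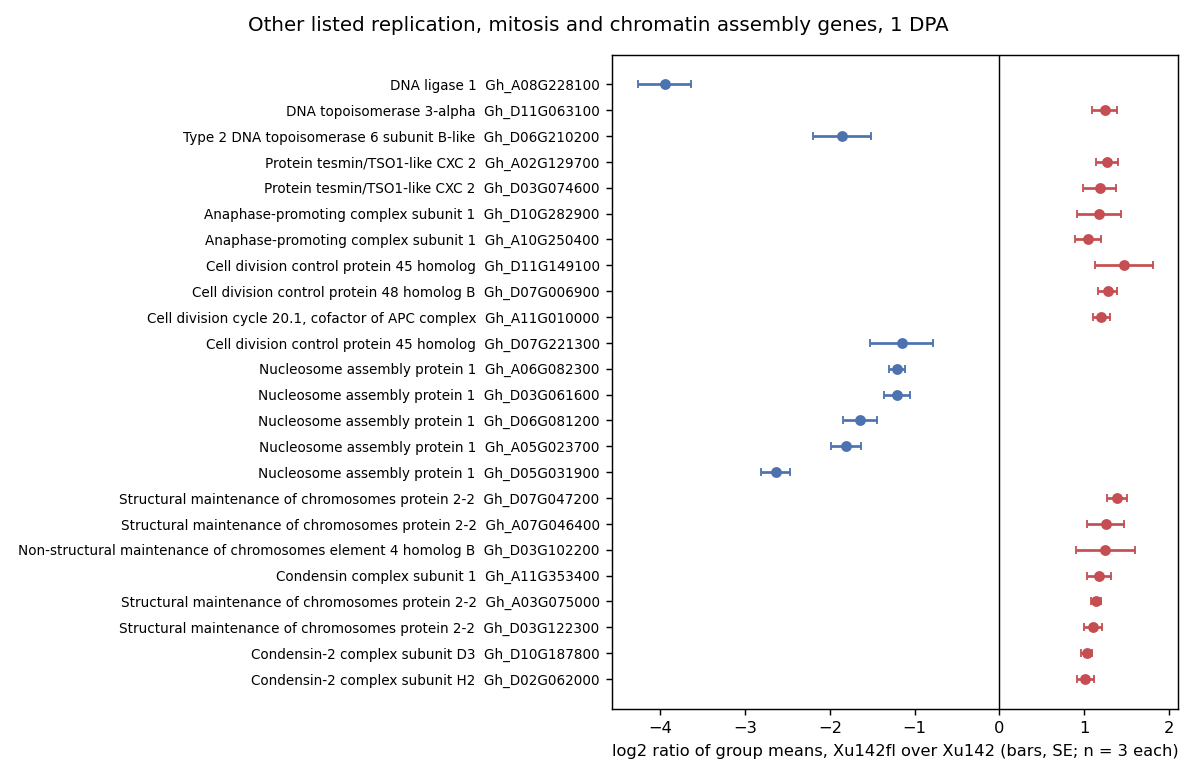
Log2 ratio of group means, Xu142fl over Xu142, with SE over 3 libraries a group (horizontal axis), of the 24 other listed genes of replication, mitosis and chromatin assembly at 1 DPA. The 16 ratios right of 0 lie between 1.02 and 1.47, and the lowest is that of DNA ligase 1 at -3.95; Gh_D07G221300, Gh_A06G082300 and Gh_D03G061600 turn slightly positive with other factors.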

How the data were processed

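RNA from ovules was measured in 18 libraries, 3 per genotype and day, grouped by their titles. Per the file headers, the authors deposited 1 table per day with a signal, normalised reads per gene, a log2 fold change and a p-value with its adjusted p-value, for called genes only. All listed genes had an adjusted p under 0.05 and a log2 fold change of at least 1 in size. Aligner, counting and testing tools, strand use and build: not given in the sources used here. Within a library, 100% of the deposited values were whole multiples of 1 step (0.567 to 1.36) within 0.001 of a read, so whole reads were recovered. Depth beyond the listed genes is unknown. The deposited fold change runs Xu142 over Xu142fl and is shrunken, so log2 ratios of the group means, Xu142fl over Xu142, were used here, with SE from the replicate SDs.

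The authors' calls were the main result. The plan named edgeR for tables of all genes and the authors' calls for tables of called genes. Dividing adjusted by raw p-values gave the number of genes tested. Alternatives refitted the recovered reads with edgeR 4.0.16 (quasi-likelihood, the authors' factors, TMM or DESeq2 factors, a replicate block, each library left out), DESeq2 1.42.0 and limma 3.58.1 (pseudocounts 1 and 0.1) in R 4.3.3. Their p-values were adjusted after Benjamini and Hochberg over the genes tested. Further alternatives applied a mean of at least 10 normalised reads, an adjusted p under 0.01 or looser name rules. Searching every protein name of a description, and not only the first, matched 7, 6 and 59 genes at -1, 0 and 1 DPA. Matching cyclin without a hyphen left the counts at 6, 6 and 48. The edgeR fit was tested on simulated data. Ratios were compared between days by an edgeR interaction test over the genes listed on both days.

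The members and lists were chosen with earlier results of these data known. At 1 DPA the naming rule took, in each role and direction, the widest ratio and the highest mean, genes listed on more than 1 day and A and D pairs. It named 32 of the 48, and the other 16 are given so that each member is accounted for. Intervals cover counting error only. A further gene is not reported here.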

Additional observations from a re-analysis of the deposited data

Results flagged for a closer look

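A single pattern was set apart: genes whose genotype ratio differed between days in the edgeR interaction test with Benjamini-Hochberg adjustment over all genes listed on both days. For HMG-Y-related protein A, Gh_A07G085000, the log2 ratio of Xu142fl over Xu142 was larger at 1 DPA than at -1 DPA by 1.09 (adjusted p = 0.00146). For cyclin-dependent kinase inhibitor 7, Gh_D02G235400, it was larger at 1 DPA than at -1 DPA by 2.76 (adjusted p = 9.81e-08), and the gene was lower in all 3 Xu142fl libraries at -1 DPA and higher in all 3 at 1 DPA. For cyclin-dependent kinase inhibitor 7, Gh_D13G040600, the difference of 1 DPA minus 0 DPA was -2.08 (adjusted p = 0.00392). Such a difference was common among the genes listed on both days: 263 of 700 passed between -1 and 1 DPA, and 521 of 1145 between 0 and 1 DPA. The test used the authors' factors only, and the size of a difference depends on the scaling. With TMM factors from the listed genes the edgeR log2 ratio of Gh_A07G085000 was 1.86 at -1 DPA and 4.32 at 1 DPA.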

How the results depend on the processing

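At -1 DPA all 6 cell division genes kept their direction in every refit, 6 were called without each library in turn, and 4 with DESeq2 factors from the listed genes, which lost Gh_A13G255900 (0.30) and Gh_A06G146200 (0.21). Of all 872 listed genes, 858 to 872 were called with 1 library left out and 692 with those DESeq2 factors. At 0 DPA 3 of the 6 were called by limma with a pseudocount of 0.1, and 2 to 6 with 1 library left out, the 2 without Xu142 replicate 2. Of all 1366 listed genes, that limma fit called 522 and the fits with 1 library left out 688 to 1016. At 1 DPA 30 of the 48 were called with TMM factors and 30 with DESeq2 factors from the listed genes, and 37 to 46 with 1 library left out. Of all 10793 listed genes, these factors called 5916 and 5820, and the fits with 1 library left out 8350 to 10241. With TMM factors the log2 ratio turned positive in Gh_D01G240200 (0.028), Gh_Contig00516G000300 (0.016), Gh_A09G065700 (0.17) and Gh_D11G229600 (0.11). With DESeq2 factors it was 0.066, 0.0503, 0.21 and 0.15 in these genes and 0.0023 in Gh_A11G130300. Factors from a list of called genes centre the list on itself: they moved the median log2 ratio of all listed genes by -0.17, 1.10 and 1.20 (TMM) and -1.10, 1.55 and 1.24 (DESeq2) at -1, 0 and 1 DPA. No member changed direction when a library was left out, while the edgeR refit missed 0, 4 and 11 members in at least 1 such fit, the 4 at 1 DPA that it did not call with all libraries included.

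The difference of Gh_A13G183200 between 0 and -1 DPA, -0.06 and not called, was 0.24 in limma. That of Gh_A07G085000 between 1 and 0 DPA was 0.69 in limma and passed there (adjusted p = 0.0303). The labels do not say whether the replicate numbers pair the samples. Same-numbered libraries correlated at -0.020 to 0.189 in their deviations, and at 0 DPA, as a hint from the data, each correlated best with its own number. These weak correlations do not decide whether the samples were paired. With the replicate block 6, 5 and 46 genes were called at -1, 0 and 1 DPA, Gh_A02G181300 at 0 DPA (adjusted p = 0.0614) and Gh_D11G229600 at 1 DPA (0.0728) lost the call they had without it, Gh_A11G080900 was called in neither fit, and the difference of Gh_A13G183200 between 0 and -1 DPA was 0.068. Of all listed genes the block called 872, 983 and 10249 on these days. Depth limits the low genes, several of which rest on under 50 reads in 1 genotype, and genes outside the tables were not analysed here.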
